A study of Mus musculus with 30 samples.

Results

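The genes described here were chosen by a single pattern in 15 adult mouse tissues: skeletal muscle held their lowest level. In the value table of the study, the mean of the 2 muscle arrays was subtracted from the mean of the lowest of the other 14 tissues, and the 80 probes with the largest such gap among those that carried a gene symbol were taken (80 of 5622 probes with a symbol, and of 25030 probes in all). One gene, Fhl2, was set aside. Skeletal muscle was the lowest tissue for 1898 probes of the table, of which 426 had a symbol, and the 80 genes stand between ranks 10 and 338 of all probes. The gap ran from 0.71 on the log10 scale for Acpl2 to 0.21 for 4930519N13Rik. The next genes inside this limit were Nab1 (0.209) and A530082C11Rik (0.210), and the first ones outside it were D15Ertd621e (0.204), Tubb5 (0.203) and 4930579G22Rik (0.203), so the limit falls within a continuous series.

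The tissues came from male C57BL/6 mice aged 28 weeks by the labels (the methods of the study give another age), and each tissue was washed and frozen before its total RNA was extracted. Beside skeletal muscle and heart there were bone, fat, skin, liver, kidney, bladder, lung and eyes, 3 parts of the digestive tract (stomach, small and large intestine) and 2 of the brain (cortex and cerebellum), with 2 arrays each and 30 arrays in all. On every array Cy3 carried the tissue RNA and Cy5 a common reference, a pool of RNA from cultured mouse cell lines mixed with embryonic stem cell RNA. The values below are log2(Cy3/Cy5), so 0 means the level of the reference and a difference of 1 a doubling, and each mean is over 2 arrays. Replicate arrays came from different animals according to the submitters, apart from fat and bone, which are described with one replication although 2 arrays of each are labelled.

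Skeletal muscle is built of long fibres with many nuclei that no longer divide. Their cytoplasm is filled with sarcomeres, made of muscle forms of actin, myosin and their partners, and with mitochondria, while the general actin cytoskeleton and the secretory membranes take up little of the fibre. Several enzymes and structural proteins exist as a general form and as a muscle form encoded by another gene, and in a fibre the muscle form is the more abundant. Whether a muscle sample holds fewer cells of a type or less RNA of a gene per cell cannot be told apart in RNA of whole tissue.

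The label of the muscle samples was checked first. All 13 skeletal muscle markers passed the filter, and 12 of them were called higher in muscle than in the mean of the other 14 tissues, with a median difference of 4.14 over the 13. Muscle was the highest tissue for 9 markers, among them Mstn (muscle mean 7.58), the brake on muscle growth myostatin, and Cacna1s (4.36), the calcium channel of the fibre membrane. For the other 4 (Actn3, Myl1, Ankrd23 and Tnni1) bone was the highest. Chrnd, a subunit of the acetylcholine receptor, was the marker that was not called (0.32). The summed Cy3 level of the 13 markers was 720193 and 943976 scanner units on the muscle arrays, 552744 and 612904 on the bone arrays, 43470 and 201972 on the skin arrays, 96872 and 109498 on the heart arrays, and had a median of 4282 over the 28 arrays without muscle. The bone sums thus came near those of muscle, although the 9 markers highest in muscle were lower in bone (Mstn at a mean of 3.98). Both skin sums lay above the median. The 8 leukocyte markers summed to 2896 and 3456 units in muscle, against a median of 6344 elsewhere and 29340 and 31987 in bone.

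The 80 probes are written with the symbols of the study, which are old for many. In a current mouse gene table (GRCm38.p6) 39 symbols were current, 33 were synonyms of another symbol and 8 had no match, and 66 of the matched probes belong to protein-coding genes and 6 to long noncoding RNAs. RIKEN clone names make up 40 of the symbols. Both 4933407C03Rik and 5830471E12Rik now stand for Cmip, so that 1 gene was measured by 2 of the probes.

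The choice was made in the value table of the study, and the same genes were then followed in values computed anew from the spot signals. There the muscle mean was the lowest of the 15 tissues for 75 of the 80 genes, and both muscle arrays lay below all 28 others for 70 genes. Among all 21019 probes tested, muscle was lowest for 10.2%, and both of its arrays lay below all others for 4.61%. The difference between muscle and the mean of the other 14 tissues had a median of -2.0 over the 80 genes, with a range from -4.45 to -0.48, and the median over all probes tested was -0.14. With the threshold used throughout (limma, Benjamini-Hochberg adjusted p under 0.05 and a difference of at least 1), 74 of the 80 genes were lower in muscle and 15.8% of all probes were, while 10.5% of all probes were higher. Since this contrast chose the genes, these counts describe them and test nothing.

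**Figure D1:**
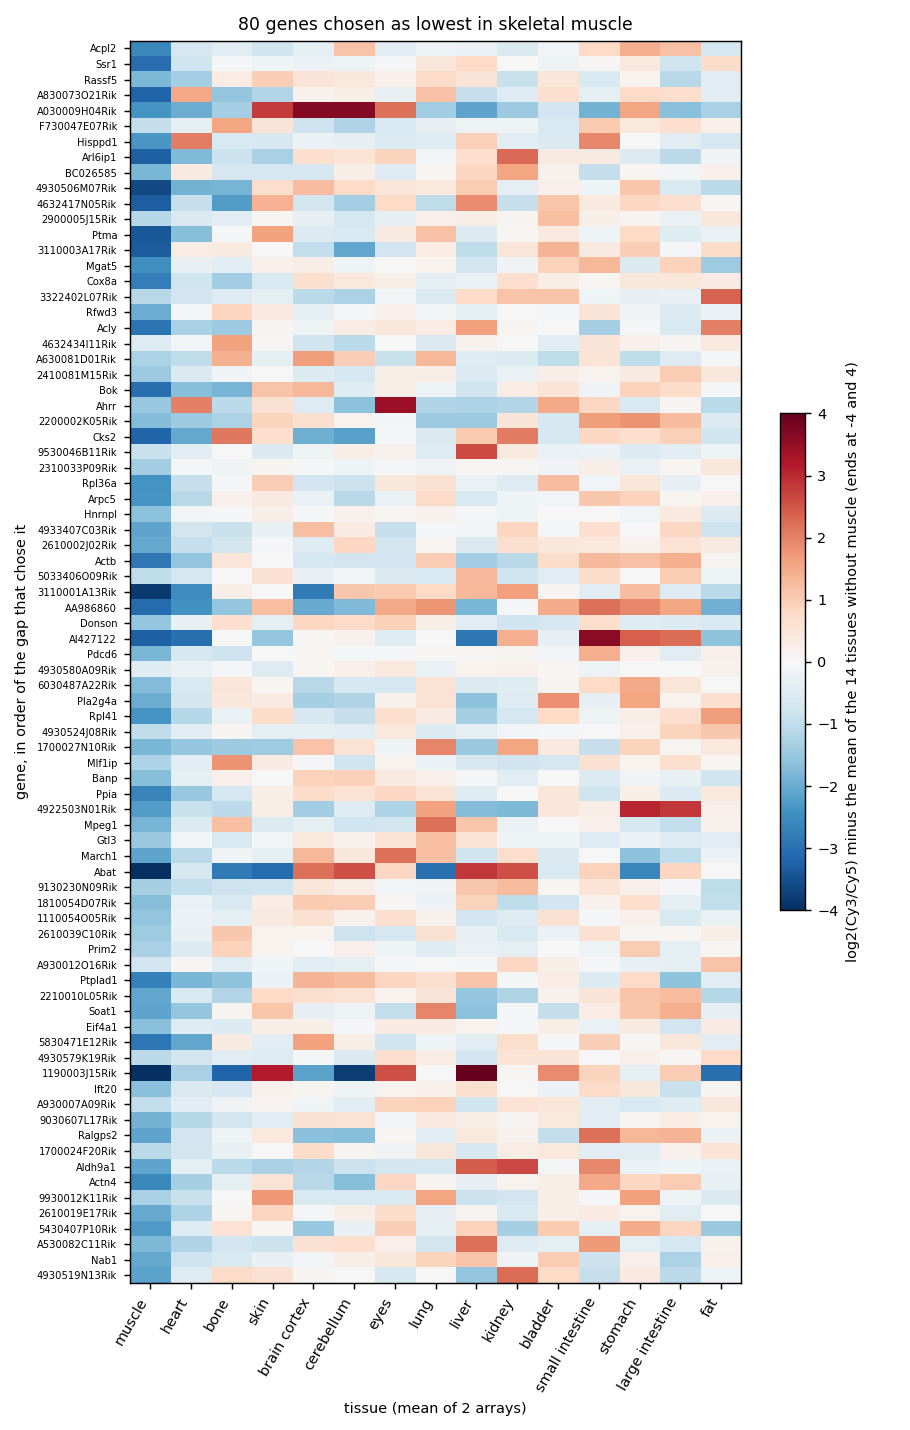
Each row is 1 of the 80 genes, in the order of the gap that chose it, and each column a tissue (mean of 2 arrays). Colour gives log2(Cy3/Cy5) minus the mean of the 14 tissues without muscle. The muscle column is blue throughout, heart is blue for most rows, and the other tissues vary from gene to gene.

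The 2 muscle arrays were alike, with a median SD of 0.09 and a largest SD of 0.48 (Mpeg1). Replicates of some other tissues differed more, as for Ssr1 in large intestine (SD 1.26) and Acpl2 in fat (SD 1.47). The correlation of replicate arrays was 0.98 in muscle and 0.66 in the tissue where it was lowest. Such arrays enter the means of the other tissues. The reference channel was compared as well, since a ratio can fall when Cy5 rises. Its level on the muscle arrays differed from that on the other arrays by a median of -0.11 over the 80 genes and of -0.16 over all probes. It was higher by more than 0.5 for 5 genes, Actb (0.88), Ppia (0.80), Rpl41 (0.65), Ptma (0.59) and Rpl36a (0.57), and the differences of these 5 were smaller when Cy3 alone was used: -1.72 in place of -2.87 for Actb, -1.62 in place of -2.68 for Ppia, -1.45 in place of -2.36 for Rpl41, -2.38 in place of -3.38 for Ptma and -1.47 in place of -2.40 for Rpl36a. On all 6 scales that were tried the 80 genes kept a muscle level below the mean of the other tissues, and 67 were lower by at least 1 on every scale.

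For some genes the muscle level is only a bound. In all, 15 genes were not well above background on either muscle array, 3 were so on 1 array and 62 on both. Of the 15 dim genes, muscle was the lowest tissue for 10, against 65 of the other 65. The 5 genes for which it was not were F730047E07Rik, 3322402L07Rik, 4632434I11Rik, Ahrr and 4930580A09Rik, though signals this near background have no firm order. The mean of the 14 other tissues exceeded the muscle level of these dim genes by at least 1.27-fold (4632434I11Rik) to at least 8.98-fold (AI427122). Each bound is the smallest of 7 values: the fold on each of the 6 scales, and the fold of the Cy3 level after loess and quantile scaling between arrays, with muscle at the higher of the probe's own signal and the lowest signal well above background. The own signal was the higher one for all 15, so the lowest signal well above background altered no value. The words at least thus stand for the smallest measured fold, here and below, and take in no error of the signals. Without dye swaps these bounds are open to dye bias.

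Slide and scan day were taken from the arrays. One muscle array shared its slide with 3 other arrays (both skin arrays and 1 of small intestine), and lay below all 3 for 79 of the 80 genes and for 33.9% of all probes, with a median difference of -2.16 over the 80. Both muscle arrays were scanned on the same day as 8 arrays of 5 other tissues, and lay below all 8 for 79 genes and for 19.5% of all probes, with a median difference of -2.19 over the 80. The choice of the genes used these same arrays, so both counts follow largely from it and support nothing.

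Ssr1, a subunit of the complex that helps proteins into the endoplasmic reticulum, is one of 5 genes grouped here under the secretory membranes, after their values were known. Its muscle arrays stood at -3.43 and -3.42, its heart arrays at -1.15 and -1.15, and its liver arrays, the tissue with the highest mean, at 0.38 and 0.48. The 28 other arrays ranged from -2.04 to 0.56, so that none reached the muscle values, and the lowest was 1 array of large intestine, whose replicate stood at -0.26. The difference of muscle from the mean of the other tissues was -3.06 (8.34-fold), and the next lowest tissue lay 2.27 above muscle (SE 0.35, from the spread pooled over tissues). Arl6ip1, a protein that shapes the tubes of the endoplasmic reticulum, stood at -2.84 and -2.92 in muscle, -1.43 and -1.31 in heart and 2.69 and 2.62 in kidney. The difference from the mean of the other tissues was -3.27 (9.66-fold). Acpl2, now Pxylp1, a phosphatase of the Golgi that acts on the sugar linker of proteoglycans, had muscle values of -2.01 and -1.84, and its other 28 arrays ranged from -1.11 to 2.24. Mgat5, which adds a branch to N-glycans in the Golgi, was at -1.22 and -1.30 in muscle, and its mean in the other tissues was 1.20. The group also holds Pdcd6, a calcium-binding protein of transport sites.

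A group of 5 genes of the actin cytoskeleton was put together after the values were known. Actb, the actin of nonmuscle cells, had muscle values of -3.99 and -3.76, heart values of -2.61 and -2.54, and values of 0.23 and 0.63 on the large intestine arrays. Its difference from the mean of the other tissues was -2.87. Arpc5, a subunit of the complex that starts actin branches, stood at -1.81 and -2.01 in muscle and at 1.69 and 1.38 in small intestine, the highest tissue. Actn4, the nonmuscle form of alpha-actinin, stood at -2.42 and -2.27 in muscle, and its other arrays ranged from -1.53 to 1.77. The muscle form Actn3, one of the markers above, differed by 6.20 in the opposite direction. AI427122, now Pls1, is a bundler of actin in microvilli. It reached 4.84 and 5.31 in small intestine, and was not well above background in muscle (-1.85 and -1.79). The last of them, 4930506M07Rik, now Shtn1, links actin flow to the growing tip of axons. Muscle stood at -2.5 and -2.71, heart at -0.92 and -0.89, bone at -0.99 and -0.75, and cortex, the highest, at 2.27 and 2.18. Its difference was -3.60.

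Among the enzymes, Cox8a is the general form of a small subunit of cytochrome c oxidase, for which rodent heart and muscle have another form. Its muscle arrays were at -2.42 and -2.29, and the SE of its gap was 0.14. Bone was the next tissue, at -0.83 and -1.15, then heart at -0.39 and -0.42, and kidney was the highest at 1.11 and 1.05. The difference from the mean of the other tissues was -2.77 (6.80-fold). Acly makes cytosolic acetyl-CoA for lipid synthesis. It stood at -2.79 and -2.68 in muscle, at -1.20 and -1.38 in bone and at -1.17 and -1.07 in heart. Fat (2.28 and 2.10) had the highest mean, and 1 liver array stood at 2.21. Hisppd1, now Ppip5k2, a kinase of inositol pyrophosphates, had muscle values of -2.53 and -2.57 and the highest mean in heart (1.86 and 1.80). Its muscle level and its heart level were thus at opposite ends of the order.

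On the loess scale, the 3 largest differences from the mean of the other tissues belonged to genes that varied widely among those tissues. The dim genes AI427122 (-5.93) and A030009H04Rik (-5.39) were lower still with processed signals. Their muscle signals were not well above background, so these values have no firm size, and their bounds are smaller (8.98-fold and 4.92-fold). 1190003J15Rik, now Urah, which acts in the breakdown of urate, stood at -4.30 and -4.28 in muscle and at 4.40 and 4.40 in liver, and its difference was -4.45. Cerebellum (-3.71 and -3.55) and bone (-3.85 and -2.27) were next to muscle, and the bone arrays lay far apart. Abat breaks down the transmitter GABA. Its muscle arrays were at -0.05 and 0.21 and its liver arrays at 6.93 and 6.88, and the cortex values were 6.28 and 6.30. Skin (0.97 and 1.05) and lung (1.12 and 1.1) were the tissues next to muscle. A second Abat probe, given below, differed by -0.59, and muscle was not its lowest tissue. 3110001A13Rik, now Fam107b, was at -3.34 and -3.19 in muscle, at -2.23 and -2.30 in cortex and at 1.48 and 1.80 in cerebellum, so the brain regions lay far apart.

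Several genes with general functions in the nucleus, in protein folding and in translation belong to the 80. Ptma, a small acidic protein of the nucleus, stood at -5.38 and -5.40 in muscle, -3.69 and -3.74 in heart and -0.16 and -0.63 in skin, and the other 28 arrays all lay above muscle. Ppia, a folding enzyme often used as a reference gene, was at -3.76 and -3.95 in muscle, -2.68 and -2.69 in heart and -0.38 and -0.32 in eyes. The ribosomal proteins Rpl36a and Rpl41 differed by -2.40 and -2.36, and Eif4a1, the helicase of translation initiation, by -1.66. For these 5 genes the size depended on the reference channel or the scaling, as given above for 4 of them, and Eif4a1 stood at -0.89 with median centring. Bok, a relative of the cell death gene Bax, was at -3.07 and -3.17 in muscle, -2.26 and -1.65 in bone and -1.85 and -1.77 in heart, and was highest in cortex (1.30 and 1.17).

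Rassf5, which acts in the adhesion of lymphocytes, was not well above background on the muscle arrays (-1.66 and -1.83). Heart, at -1.40 and -1.24, was next, and skin (1.08 and 1.01) was the highest. The mean of the 14 other tissues exceeded the muscle level at least 3.41-fold. Mpeg1, a pore-forming protein of macrophages, differed most between the muscle arrays (-1.46 and -2.13), and March1, now Marchf1, which removes antigen-presenting proteins from the surface, was at 0.90 and 0.50. The leukocyte markers were low in the same arrays, as given above, and their part in these values was not tested.

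**Figure D2:**
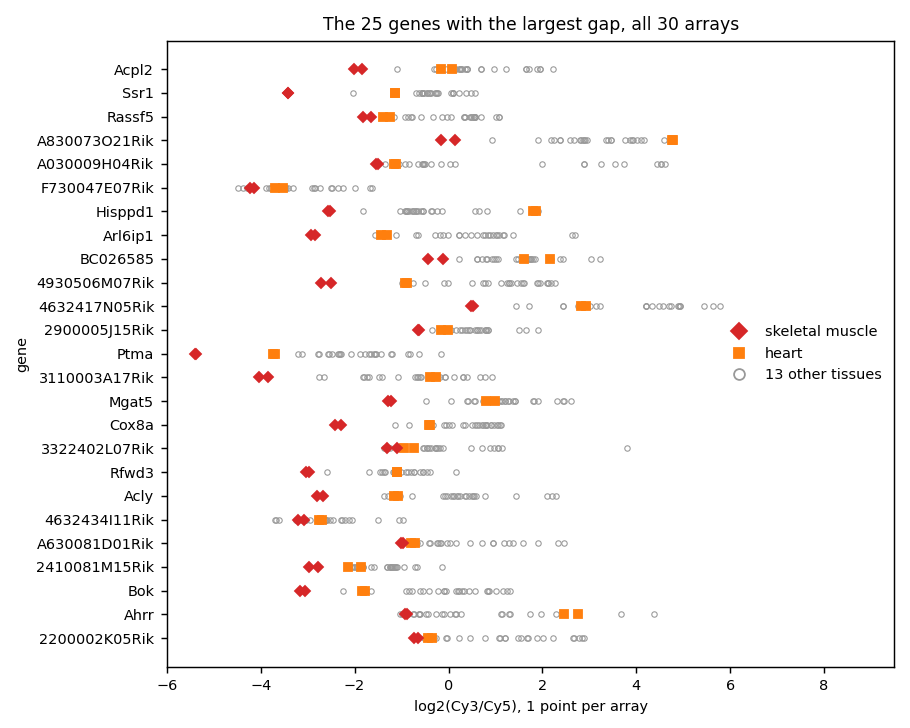
For the 25 genes with the largest gap, each point is 1 array on the log2(Cy3/Cy5) axis, with skeletal muscle as red diamonds, heart as orange squares and the 13 other tissues as open circles. Most muscle points lie apart on the left, and the points of F730047E07Rik, 3322402L07Rik, 4632434I11Rik and Ahrr lie among those of other tissues.

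The other genes with the largest gaps have varied or unknown functions. A830073O21Rik was at 0.15 and -0.15 in muscle against a mean of 3.22 elsewhere and was highest in heart. BC026585 (-0.11 and -0.44) was well above background on 1 muscle array. 4632417N05Rik, now Sdr42e1, a member of a family of dehydrogenases, was at 0.47 and 0.51 in muscle and at 1.71 and 1.43 in bone. 3110003A17Rik, now Abracl, differed by -3.31 from the mean of the other tissues, Rfwd3, a ubiquitin ligase of DNA repair, by -1.98, and 2410081M15Rik, now Zbtb8a, a zinc finger protein, by -1.44. Others of the 25 were not well above background in muscle, and the mean of the 14 other tissues, though not each tissue, exceeded muscle at least 2.02-fold for 2900005J15Rik, at least 2.21-fold for A630081D01Rik, at least 2.48-fold for 2200002K05Rik (now Vstm5), at least 1.98-fold for 3322402L07Rik (now Rd3, of photoreceptors), at least 2.59-fold for Ahrr, a repressor of the dioxin receptor, at least 1.86-fold for F730047E07Rik and at least 1.27-fold for 4632434I11Rik. A030009H04Rik, now Rnf227, was also dim in muscle (-1.54 and -1.51), with a bound of at least 4.92-fold for the same mean, and was at 4.6 and 4.43 in cortex.

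The windows before the start sites of 60 genes were in the promoter table (RefSeq, GRCm38.p6), counted as 250 bases up to the start. The 4 below are shown because they belong to leading genes just described, whose muscle arrays lay below all others. Capitals mark every CCAAT box, every GC box with the letters GGGCGG, every TATA box with the letters TATAAA, every ETS-type site with the letters CCGGAAG, every CArG box and every MEF2 site found on either strand, where a motif on the opposite strand reads as its reverse complement.
Ssr1, chr13:37994209-37994458, minus strand: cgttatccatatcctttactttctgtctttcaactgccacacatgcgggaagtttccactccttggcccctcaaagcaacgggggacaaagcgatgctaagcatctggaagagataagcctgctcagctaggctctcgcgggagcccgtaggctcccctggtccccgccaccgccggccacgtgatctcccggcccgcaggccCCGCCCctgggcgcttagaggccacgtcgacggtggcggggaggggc
Arl6ip1, chr7:118129626-118129875, minus strand: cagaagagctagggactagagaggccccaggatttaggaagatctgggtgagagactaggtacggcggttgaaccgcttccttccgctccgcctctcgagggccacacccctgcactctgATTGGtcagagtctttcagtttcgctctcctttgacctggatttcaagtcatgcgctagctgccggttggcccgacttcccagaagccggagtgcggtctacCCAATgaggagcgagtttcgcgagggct
Ptma, chr1:86526307-86526556, plus strand: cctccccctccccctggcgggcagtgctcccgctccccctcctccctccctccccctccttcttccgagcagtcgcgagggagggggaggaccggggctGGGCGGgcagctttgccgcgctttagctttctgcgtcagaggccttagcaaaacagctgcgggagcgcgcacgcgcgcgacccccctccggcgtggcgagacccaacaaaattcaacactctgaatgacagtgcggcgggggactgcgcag
Cox8a, chr19:7217617-7217866, minus strand: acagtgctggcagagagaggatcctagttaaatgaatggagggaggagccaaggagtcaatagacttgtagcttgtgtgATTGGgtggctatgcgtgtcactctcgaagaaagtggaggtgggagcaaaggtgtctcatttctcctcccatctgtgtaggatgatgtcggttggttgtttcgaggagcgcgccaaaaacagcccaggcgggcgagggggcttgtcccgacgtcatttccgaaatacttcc
Ssr1 has 1 GGGCGG, read on the opposite strand and starting 47 bases before the start, and Ptma has 1 at 151 bases. Arl6ip1 has 2 CCAAT, at 130 and 28 bases, and Cox8a has 1 at 171 bases. Over the 60 genes, GGGCGG was found in 41 (68.3%), against 35.4% of the 27025 genes of the table and 45.8% of its 17491 protein-coding genes. Among the 56 protein-coding genes of the 60, it was found in 38 (67.9%). CCAAT was found in 25 of 60 (41.7%, against 37.5% of all), TATAAA in 4 (6.67% against 14.3%), CCGGAAG in 5 (8.33% against 7.83%) and the E-box letters CANNTG in 35 (58.3% against 69.3%). The CArG box was found in 1 window (1.67% against 1.62%) and the MEF2 site in none (0 of 60, against 0.592% of all). These are matches of letters in short windows, with no test.

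For several genes the array holds a second probe outside the table, measured in the same muscle samples and therefore also a description. The probes of Actn4 share 53 bases with a second probe on the same strand and 44 bases with a probe on the opposite strand. A stretch of 30 shared bases is shown, with capitals marking bases shared by all 3 probes.
Actn4, chosen probe, bases 8 to 37: GATTGATTTTTATTTTCTTGGTTTCTGGAT
Actn4, second probe, bases 1 to 30: GATTGATTTTTATTTTCTTGGTTTCTGGAT
Actn4, opposite strand, bases 8 to 37: ATCCAGAAACCAAGAAAATAAAAATCAATC
The second Actn4 probe was at -2.65 and -2.46 in muscle, a difference of -2.80, and the opposite one at -0.13 and 0.38, with a difference of 0.01 and a signal well above background on 9 of 30 arrays. A second Actb probe, with at most 6 bases in common, stood at -2.35 and -2.05 in muscle, which was again the lowest tissue, with a difference of -1.94. Muscle was also lowest on the overlapping probes of Rfwd3 (-2.07), Bok (-2.79), BC026585 (-1.64) and Ift20 (-1.21) and on a second probe of 5430407P10Rik, now Proser2 (-1.56). It was not lowest on the second probes of Abat (-0.59) and A530082C11Rik (-0.42), of which the latter was well above background on all 30 arrays. The second probes of Abat and 5430407P10Rik were well above background on 1 muscle array each, and that of 2310033P09Rik on neither, so its rank in muscle is not given. Apart from the opposite-strand probe, muscle was the lowest tissue on 5 of 5 second probes that share 27 to 54 bases with the probe of the table, which are not independent of it. On the 5 second probes that share at most 6 bases, muscle was lowest on 2, with 2310033P09Rik counted as not lowest.

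To learn how these genes behave without the muscle arrays, the 28 arrays of the other 14 tissues were fitted alone. Among them, the bone and skin arrays carried skeletal muscle markers, as given above, so the 28 arrays are not free of muscle genes. The choice used these tissues through the lowest of them, which had to lie far above muscle in the value table, so that it also limited how low any of them could be, and it used the same arrays. The moderated F-test of limma found a difference among the 14 tissues for 74 of the 80 genes (92.5%), and for 88.8% of all 21002 probes tested. The SD of the 14 tissue means had a median of 0.78 over the genes and of 0.64 over all probes. The 6 genes that did not pass were Rfwd3, 2310033P09Rik, Hnrnpl, 4930524J08Rik, Banp and 2610019E17Rik, with adjusted p between 0.0975 (2610019E17Rik) and 0.560 (2310033P09Rik) in the limma F-test.

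Heart, the other organ of striated muscle, held many of the genes at a low level. Of the 80, 29 were lower in heart than in the mean of the 13 other tissues (36.2%) against 10.2% of all probes, and 3 were higher (3.75%) against 10.2% as well. The median difference was -0.79, and -0.10 over all probes, and 74 of the 80 differences were negative. Heart was the lowest of the 14 tissues for 21 genes (26.2%, against 5.82% of all probes).

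On the loess scale the largest of these differences were those of AI427122 (Pls1), 3110001A13Rik (Fam107b) and AA986860. AI427122 stood at -1.53 and -1.57 in heart, a difference of -3.24 (SE 0.47, limma adjusted p = 2.48e-05), and the liver arrays, both at -1.41, were close to it. 3110001A13Rik stood at -2.05 and -1.88, a difference of -2.72 (SE 0.32, limma adjusted p = 2.12e-06), with the cortex arrays lower still. AA986860 stood at -0.60 and -0.46, a difference of -2.62 (SE 0.22, limma adjusted p = 5.93e-08). Among those lower in heart were other genes put above under the actin cytoskeleton, a group formed after the values were known: 4930506M07Rik (-2.04), Actb (-1.69), Actn4 (-1.45) and Arpc5 (-1.21). Others were Arl6ip1 (-1.89), Ptma (-1.83), Ppia (-1.63), Acly (-1.39) and Rpl41 (-1.21). Cox8a with -0.87 and Ssr1 with -0.84 did not reach the threshold of 1, and of the 5 genes of the secretory membranes 1 passed.

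The 3 genes higher in heart were Hisppd1, Ahrr and A830073O21Rik. Hisppd1 was 2.21 above the mean of the other tissues (SE 0.33, limma adjusted p = 3.08e-05), with the small intestine arrays (1.91 and 1.51) at a like level. Ahrr had heart values of 2.76 and 2.47, and was 2.16 above (SE 0.25, limma adjusted p = 2.65e-06), while the eyes were higher still (3.68 and 4.37). A830073O21Rik was 1.68 above (SE 0.21, limma adjusted p = 5.99e-06), with both heart arrays (4.76 and 4.79) above all other arrays.

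Heart shared a slide with liver, and within that slide the median difference over the 80 genes was -0.51 and 29 genes were lower by at least 1, as were 13% of all probes. Within its scan day, against 7 tissues, the median was -0.74 and 29 genes were lower by at least 1, as were 12.4% of all probes. Leaving out 1 array at a time gave between 26 and 31 genes lower, and 3 higher every time.

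**Figure D3:**
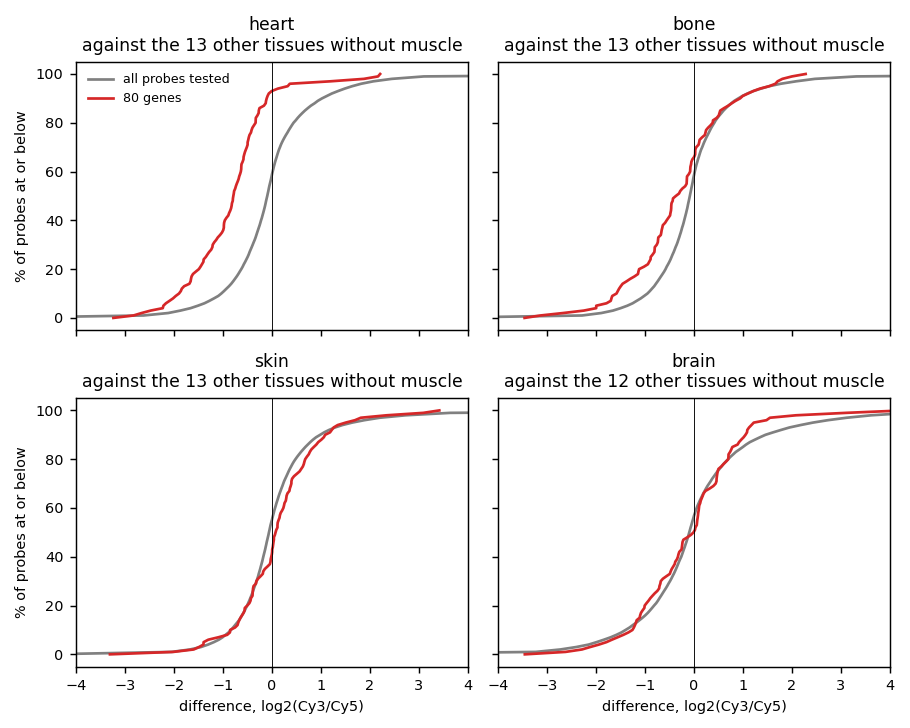
Each panel gives, for 1 comparison among the 14 tissues without muscle, the share of probes (vertical axis, percent) whose difference in log2(Cy3/Cy5) is at or below the value on the horizontal axis, for the 80 genes (red) and for all probes tested (grey). The red line lies to the left of the grey one for heart (medians -0.79 and -0.10) and, less, for bone (-0.37 and -0.09), and close to it for skin and brain.

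Bone was compared next, since the markers of muscle were high on its arrays. Of the 80 genes, 17 were lower in bone than in the mean of the 13 other tissues (21.2%), against 8.86% of all probes, and 8 were higher (10%), against 8.73%. The median difference was -0.37. The lower genes were led by 1190003J15Rik (Urah, -3.47, SE 0.29, limma adjusted p = 6.81e-08), Abat (-3.05, SE 0.18, limma adjusted p = 1.03e-09) and 4632417N05Rik (Sdr42e1, -2.40, SE 0.21, limma adjusted p = 1.43e-07). They included Cox8a (-1.51), Acly (-1.58) and Bok (-2.0), and 10 of the 17 were also lower in heart. The skeletal muscle markers of the bone arrays summed to 552744 and 612904 units, as given above, and their part in these values was not tested. Within a slide and scan day, bone could be set against 1 array of large intestine, with a median over the 80 genes of 0.15, and against 1 array of fat, with a median of -0.02 (0.03 and 0.01 over all probes). Of the 80, 19 were lower by at least 1 than in large intestine, as were 16.6% of all probes, and 16 than in fat, as were 8.24%.

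Of the 8 genes higher in bone, 6 act in cell division, replication or DNA repair: Cks2, a partner of the kinases of the cell cycle (2.28, SE 0.24, limma adjusted p = 1.19e-06), Mlf1ip, now Cenpu, of the centromere (1.93, SE 0.16, limma adjusted p = 9.35e-08), 4632434I11Rik, now Ddias, which protects cells with damaged DNA (1.72, SE 0.22, limma adjusted p = 9.78e-06), F730047E07Rik, now Mms22l, of stalled forks (1.69), 2610039C10Rik, now Mis18a, of the centromere (1.15) and Prim2, the large subunit of primase (1.00). The others were A630081D01Rik (1.53) and Mpeg1 (1.28). In all, 10 of the 80 genes were put in this group of functions, after their values were known, and no fixed list of such genes was counted in bone. The 8 genes (10% of the 80) lie near the share of all probes higher in bone (8.73%). The leukocyte markers of bone summed to 29340 and 31987 units, and their part in these values was not tested. The count of 8 depended on the arrays: it was 4 without bone replicate 1 and 13 without bone replicate 2.

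For Cks2, the bone arrays (-0.97 and -1.87) and the kidney arrays (-1.83 and -1.07) were the highest, and muscle was the lowest at -6.69 and -6.77, below heart (-5.66 and -5.53), cortex (-5.41 and -5.56) and cerebellum (-5.70 and -5.73). Mlf1ip stood at -0.98 and -1.58 in bone, above all other arrays, and at -4.23 and -4.34 in muscle, below all. For 4632434I11Rik the bone arrays (-1.06 and -0.97) were again above all others, whereas muscle, at -3.08 and -3.21, was not well above background, and its rank is not given.

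**Figure D4:**
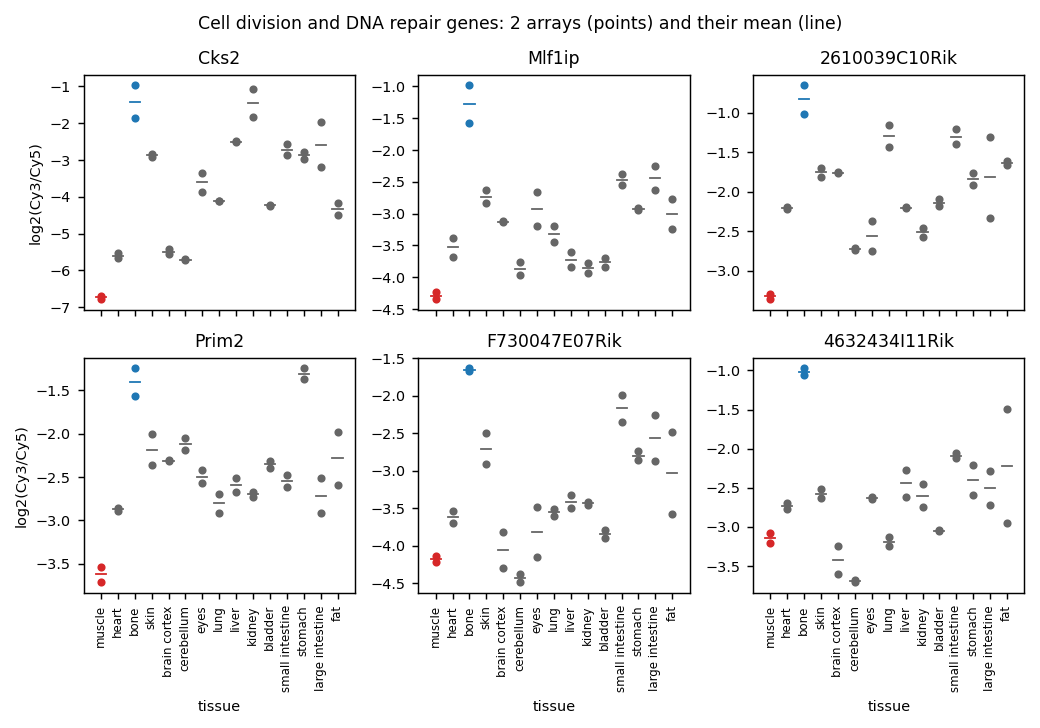
The 6 cell division and DNA repair genes called higher in bone, with log2(Cy3/Cy5) on the vertical axis and tissues on the horizontal one; points are the 2 arrays and lines their mean, with muscle in red and bone in blue. Bone is the highest tissue in all panels but Prim2, where stomach is, and muscle is the lowest except for F730047E07Rik and 4632434I11Rik, which were not well above background there.

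In skin the counts lay near those of all probes. Of the 80 genes, 6 were lower there (7.5%, against 6.8% of all probes) and 10 were higher (12.5%, against 9.66%), and the median difference was 0.07. Within its scan day the median was -0.19, and within its slide, against small intestine alone, -0.28. The lower genes were led by Abat (-3.31, SE 0.18), AI427122 (-1.67, SE 0.47, limma adjusted p = 0.00902) and 1700027N10Rik, now Rsph9, of the radial spokes of cilia (-1.54, SE 0.29). The call of AI427122 was lost in 4 settings (limma adjusted p from 0.0828 to 0.114). The higher ones were led by 1190003J15Rik (3.42, SE 0.29), A030009H04Rik (3.01, SE 0.18) and 9930012K11Rik (1.86, SE 0.18), and included Ptma (1.74) and Soat1, which esterifies cholesterol (1.20). With median centring in place of loess, 3 genes were higher. The skeletal muscle markers of skin are given above, and their part was not tested.

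Brain, the mean of cortex and cerebellum, had 17 of the 80 genes lower than the mean of the 12 other tissues (21.2%, against 15.9% of all probes) and 9 higher (11.2%, against 14.9%). The median difference was -0.01, and -0.04 within the scan day that holds 3 of the 4 brain arrays. 1190003J15Rik (-3.46, SE 0.21), Cks2 (-2.41, SE 0.18) and AA986860 (-2.21, SE 0.17) had the lowest values, and Actn4 (-1.65) was lower too. A030009H04Rik (4.28, SE 0.14), Abat (2.80, SE 0.13) and A630081D01Rik (1.56, SE 0.20) had the highest, and 4930506M07Rik (1.16), the gene of axon growth, was among the others. The split depended on the scaling, with 6 lower and 16 higher after median centring and 10 lower with Cy3 alone. Cks2, AA986860, 1190003J15Rik, Actn4, 3110001A13Rik and 4632417N05Rik were lower in brain and also in heart. For 3110001A13Rik this rests on cortex (mean -2.26), since cerebellum was high (1.64).

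Lists of pathway genes were set beside the 80 in muscle, by the same threshold of the limma fit. Counts are for list genes that are not among the 80, and the background is that of all probes tested, 15.8% lower and 10.5% higher with a median of -0.14. In the actin and septin cytoskeleton, 10 of 34 were lower in muscle (29.4%) and 4 higher (11.8%), with a median of -0.41. Actg1, the other nonmuscle actin (-2.92), Actn1, another nonmuscle alpha-actinin (-2.20), Abi1 (-1.71) and Actr3 (-1.49) were the lowest, while Actr3b (2.70), Capza1 (1.45), Rdx (1.44) and Arpc5l (1.33) were higher. Arpc5 and Arpc5l, which are alternative subunits of one complex, were thus on opposite sides. Of the secretory pathway, 12 of 91 were lower (13.2%) and 6 higher (6.59%), with a median of -0.15, so the share of lower genes was near that of all probes. Rab17, of epithelial cells (-3.33), Rpn2 of the oligosaccharide transferase (-1.76), Tram1 of the translocation channel (-1.59) and Sec11a of the signal peptidase (-1.34) were the lowest. The counts of both lists changed with the scaling, from 6 to 12 lower for the cytoskeleton and from 7 to 14 lower for the secretory pathway, and with Cy3 alone as many genes of the latter were higher (7) as lower (7).

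The respiratory chain stood on the other side from its member Cox8a. Of the other 55 genes, none was called lower (0 by limma, and 3 below at an unadjusted p under 0.05), and 12 were called higher (21.8%), with a median of 0.66. Ndufb5 (1.57), Ndufv1 (1.41), Ndufs1 (1.4) and Ndufa8 (1.31) were the highest. No gene of this list was called lower on any of the 6 scales, and between 12 and 41 were called higher. Cox8a was below the mean of the other tissues on every scale, from -2.83 to -1.72. The proteasome likewise had none of 28 lower (0 by limma, 4 below at an unadjusted p under 0.05) and 6 higher (21.4%). The latter count depended on the scaling, with 11 higher with processed signals and 15 with median centring.

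Of the cytosolic ribosome, 9 of 25 genes were lower (36%) and none was higher (0), with a median of -0.94, among them Rpl13a (-1.44), Rps14 (-1.44) and Rpl3 (-1.35). This depended on the scaling: with median centring 1 was lower and 1 higher, and with Cy3 alone none was lower (0), with a median of -0.36. Rpl36a and Rpl41, the members of this list among the 80, differed by -1.36 and -1.09 at the least. Among translation factors, 2 of 25 were lower (8%), Gspt2 (-1.47) and Eef1b2 (-1.24), and 5 were higher (20%). Leukocyte genes were lower in 7 of 22 (31.8%), led by Ly96 (-1.76), Rgs1 (-1.46), Fcgr2b (-1.27) and Trem2 (-1.16), and 1, Cd28 (2.41), was higher. In splicing and RNA binding, 4 of 59 were lower (6.78%) and 4 higher (6.78%), beside Hnrnpl (-1.66) of the 80. With Cy3 alone none of these 59 was lower (0). Matrix and fibroblast genes were lower in 1 of 18 (Fn1, -1.54) and higher in 5, and blood vessel genes were lower in 1 of 11 (Nrp2, -1.24) and higher in 2. Zinc finger factors (1 of 35 lower, 1 higher), general transcription and chromatin (1 of 53 lower, 4 higher), carriers (5 of 61 lower, 8 higher) and smooth muscle markers (1 of 4 lower, 1 higher) held none of the 80 under the symbols of the study, by which 2410081M15Rik (now Zbtb8a) was not counted as a zinc finger factor. In the first 3 of these 4 lists the share of lower genes was between 1.89% and 8.2% on the loess scale. With processed signals, carriers had 9 lower and 14 higher, and general transcription and chromatin had 0 lower and 8 higher. Of the 3 genes listed as heart muscle markers, Actn2 was higher in muscle (2.31) and Fhl2, set aside from the 80, was lower (-3.05). The mean of Actn2 was 4.22 in muscle and 4.89 in heart, so it does not mark heart alone.

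**Figure D5:**
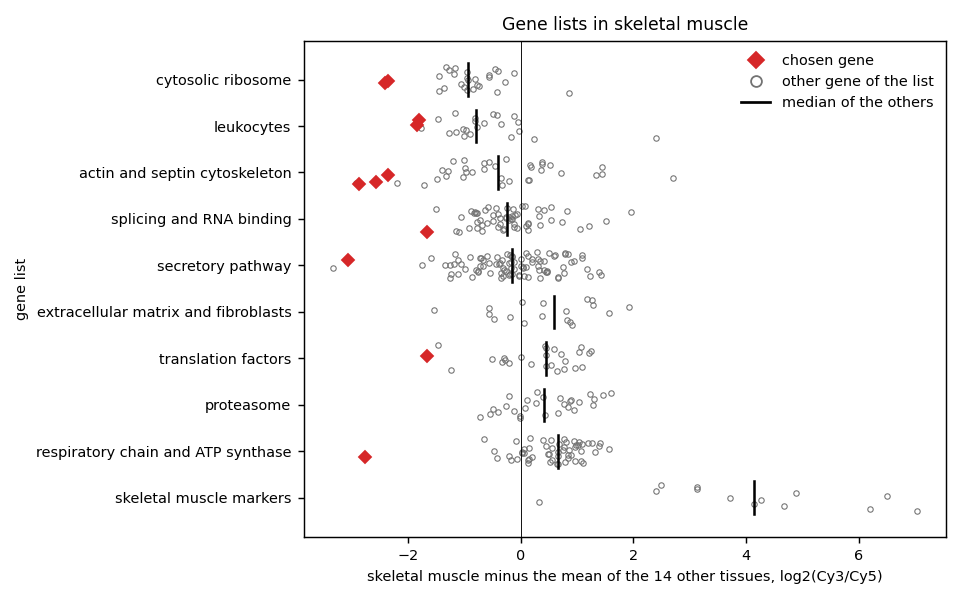
Skeletal muscle minus the mean of the 14 other tissues in log2(Cy3/Cy5) for the genes of 10 lists, with genes of the 80 as red diamonds, the other genes of each list as open circles and their median as a black bar. Cox8a lies at -2.77, apart from the rest of the respiratory chain, whose median is 0.66.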

How the data were processed

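RNA of 15 tissues was measured on two-colour Agilent 60-base oligonucleotide arrays, and per the file headers the scans were read by Feature Extraction 9.5.1.1 of Agilent. In the deposited spot files, mean, background and processed values of both dyes are an intensity in scanner units. The deposited value table holds log10 values by the authors. Set against the processed signals over 11710 bright probes, it had slopes of 0.998 on log10 Cy3 and -0.998 on the Cy5 deviation from the mean over arrays, so a high value is a high Cy3 level corrected for the reference. Its array medians, turned to log2, were 8.32 and 8.30 for muscle and 8.38 to 8.79 for the other arrays. Probe symbols came from the lists of the study, which name 5622 probes of the table, and served for names only. The columns of the table were matched by array title.

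Here, background was corrected by normexp (offset 50) on all spots, control spots and 475 flagged spots (0.0377%) were left out, each array was normalised by loess, spots of a probe were averaged and the result was expressed as log2(Cy3/Cy5). The alternatives were other scales, filters, weights and blocks (slide, scan day, replicate number) and each array left out. The number of arrays, 2 per tissue, limits the precision. Between 58.0% and 78.3% of the probes of the table were well above background in Cy3 on an array (59.8% and 61.7% in muscle), and no noncontrol spot was saturated (0). A probe was tested where some tissue had it well above background on each of its arrays (21019, or 21002 without muscle), of which 167 lacked a value on some array; all 80 genes passed and lacked none. limma 3.58.1 in R 4.3.3 fitted 1 coefficient per tissue. Muscle was compared with the mean of the 14 others, as a background only, and heart, bone, skin and brain with the others without muscle. All tests were two-sided, with Benjamini-Hochberg adjustment over all probes tested. The replicate numbers of the labels did not pair the arrays (correlations of the deviations between -0.24 and 0.337 over 105 pairs of tissues, median 0.048). The scripts were tested on simulated data with independent errors and a planted change in heart, which holds no slide or day effect. As random blocks, slide had a consensus correlation of 0.60 (0.66 without muscle) and scan day one of 0.50 (0.49 without muscle). The main fit leaves this out, so its p-values treat arrays of a slide as independent. The median probe lay 0.14 lower in muscle than in the other tissues on the loess scale, and between 0.08 and 0.17 lower on the 6 scales.

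The members and gene lists were chosen with earlier results of these data known. Genes were named by rule: the 25 with the largest gap, the 3 with the largest called difference each way in each comparison, the 3 on either side of the limit, those with a second probe, and up to 4 called genes of a list each way. For dim genes, taking the smallest bound over the scales was chosen after the values were seen. Other genes of the 80 named with a group of functions were chosen after their values were seen. Probe positions were not used here, and 1 gene of a list is not reported here.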

Additional observations from a re-analysis of the deposited data

How the results depend on the processing

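Muscle was the lowest tissue for 74 to 76 of the 80 genes when 1 array was left out. Under the other scales, filters, weights, blocks and left-out arrays, no single difference of the 80 genes that was recomputed reversed. In brain the balance of lower and higher genes did (below). Some list medians in muscle changed sign. These were secretory genes (-0.15, against 0.02 with median centring and 0.04 with Cy3 alone) and carriers (-0.07, against 0.09 with processed signals and with the value table). Smooth muscle markers did so too (-0.33, against 0.12 with processed signals). Within a slide or scan day a tissue was set against fewer tissues, which is another contrast. There the median over the 80 genes was 0.15 for bone against large intestine on 1 slide (-0.37 in the main fit). For skin it was -0.19 within the scan day and -0.28 within the slide (0.07 in the main fit). Single genes changed sign there: in heart 74 of the 80 were negative in the main fit and 59 within the slide. The cause of these changes and those below was not tested. Of the 80 genes, 17 lower in brain became 6 with median centring and 10 with Cy3 alone, and 9 higher became 16 with median centring. The 10 higher in skin became 3 with median centring. The 8 higher in bone became 5 with median centring and 13 with slide as a random block, and ranged from 4 without bone replicate 1 to 13 without bone replicate 2. The test of AI427122 in skin lost its call in 4 settings: the value table, processed signals, and without skin replicate 1 or 2.

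Over all probes, the filter that asks for a signal on both arrays of every tissue tested fewer probes (11751, or 11840 without muscle, with 68 of the 80 genes). Lower calls became 2142 in place of 3323 for muscle, 1106 in place of 2139 for heart, 1006 in place of 1861 for bone, 641 in place of 1429 for skin and 2148 in place of 3342 for brain, and higher calls 1132 in place of 1834 for bone, 1140 in place of 2028 for skin and 1549 in place of 3136 for brain. With the value table and with processed signals, higher calls became 3381 and 3400 in place of 2217 for muscle and 3008 and 3050 for bone, and lower calls 2846 and 2868 for bone and 2407 and 2500 for skin. With median centring, higher calls became 1152 for bone and 1228 for skin, and lower calls 2073 for brain.

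The replicate numbers share only a number, and the replicate block gave 3334 probes lower in muscle and, of the 80 genes, 29 lower in heart, 17 lower and 8 higher in bone, 6 and 10 in skin and 17 and 9 in brain, with 75 past the F-test.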
